A study of Sus scrofa with 6 samples.

Results

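The insulin-like growth factor (IGF) system was followed in lung tissue of 6 female piglets, crosses of a Tibetan sire and a Meishan dam. The prenatal group held 3 fetuses, each from its own sow and taken on the last day of gestation, and the neonatal group held 3 piglets of other sows that had lived for 2 days. All parents were kept under similar conditions, no transgene or experimental treatment was used, and ketamine was given before killing. The study's methods name caesarean beside parturition, so the way of delivery cannot be told apart from age. Each library came from lung tissue of 1 animal. Of the 10 genes of the system, chosen by symbol (2 ligands, 2 receptors and 6 binding proteins), 6 were matched to a row among the 14579 mRNAs of the table. These were the ligand IGF1, the receptor IGF2R and the binding proteins IGFBP4, IGFBP5, IGFBP6 and IGFBP7. IGF2, IGF1R, IGFBP2 and IGFBP3 were matched to no row and were not analysed here, so the ligand most often linked to fetal growth and the signalling receptor of the system are missing from what follows.

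IGF1 and IGF2 are small secreted growth factors that resemble insulin. They signal through IGF1R, a tyrosine kinase receptor that acts on the PI3K, AKT and mTOR kinases and holds FOXO transcription factors out of the nucleus. IGF2R, also known as the cation-independent mannose-6-phosphate receptor, has no kinase domain, takes up IGF2 for degradation and sorts enzymes to lysosomes. The binding proteins hold the ligands in the extracellular space, lengthen their life or keep them from the receptor, and are themselves cut by proteases. In the developing lung, mesenchymal cells are a known source of IGF1, and mice without Igf1r die at birth, unable to breathe.

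Levels are given as FPKM (fragments per kilobase of transcript, scaled to the mapped reads of the library), which the authors computed with Cufflinks. The column sums of FPKM lay between 339491 in Prenatal2 and 777982 in Neonatal3, and the median mRNA between 4.99 and 6.11 FPKM. Without read counts in the table the counting error is unknown, and the errors given are the spread between the 3 animals of a group. The tissue label was checked on marker genes. The 6 matched alveolar type II markers, led by surfactant protein C, summed to between 4804 and 5358 FPKM in the prenatal samples and between 6488 and 11712 FPKM in the neonatal samples. Of the 2 matched liver markers, ALB stayed at or below 0.570 FPKM, and APOA1, an apolipoprotein, lay between 8.70 and 32.4 FPKM. Of 81 markers on 14 lists of cell types, 56 were matched to a row. None of these could be at 0 in every sample, since all rows had more than 0.5 FPKM in at least 1 sample. Markers without a row were not checked.

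None of the 6 matched genes passed the test between the groups. Differences were fitted in limma on log2(FPKM + 1) over all mRNAs, with a Benjamini-Hochberg adjusted p of 0.05 or less as the threshold, and log2(FC) below is the neonatal minus the prenatal mean on that scale. By this rule 0 of 6 genes were called, against 6.87% of all mRNAs (5.41% higher and 1.45% lower in the neonatal group). IGFBP7, 1 of 6, had an unadjusted p under 0.05, against 24.2% of all mRNAs (17.6% in its direction, higher in the neonatal group). The ranges of the groups did not overlap for that 1 gene, against 30.5% of all mRNAs (20.9% in its direction). The share of calls in the whole table that were higher in the neonatal group was 78.8%, but 66.0% after median-of-ratios scaling and 57.9% after quantile normalization. The log2(FC) was above 0 for 3 genes and below 0 for 3. Its median was 0.090 over the 6 genes and 0.13 over all mRNAs. That median of all mRNAs was -0.0090 after median-of-ratios scaling and -0.038 after quantile normalization, so values near 0.1 are no higher than the table as a whole. A lower number of cells of a type and less RNA per cell cannot be told apart in tissue of this kind.

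**Figure D1:**
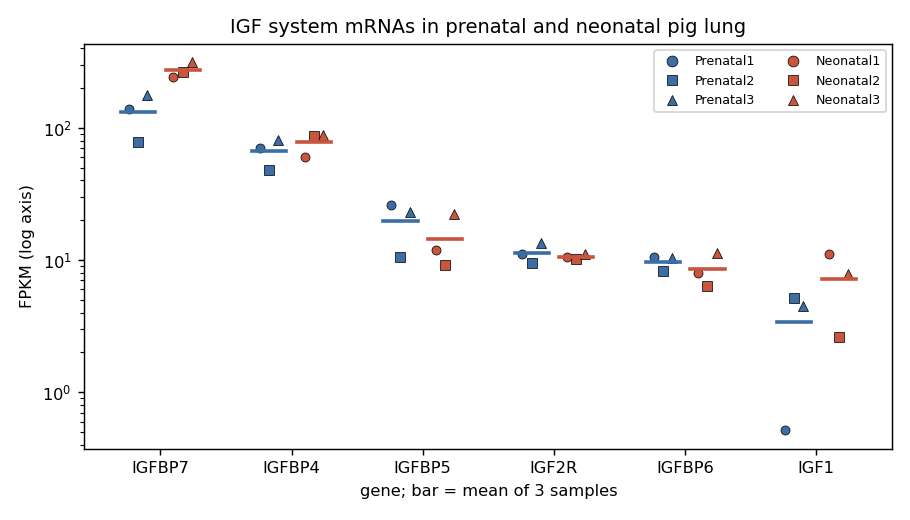
FPKM (log axis) of the 6 matched genes of the IGF system in each sample, prenatal in blue and neonatal in red, with a marker shape for each replicate number and a bar at the mean of 3 samples. The 3 neonatal samples lie above the 3 prenatal samples for IGFBP7, and the groups overlap for the other genes.

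IGF1 (ENSSSCG00000000857), the ligand, was the gene with the lowest mean level of the 6 in both groups. It was measured at 0.515, 5.12 and 4.49 FPKM in Prenatal1, Prenatal2 and Prenatal3. Neonatal1, Neonatal2 and Neonatal3 had 11.1, 2.62 and 7.89 FPKM. The groups overlapped, since Neonatal2 lay below Prenatal2 and Prenatal3. The group means were 3.37 ± 2.50 and 7.21 ± 4.30 FPKM (n = 3 each, SD). The log2(FC) was 0.98 with a standard error of 0.63 and a 95% interval from -0.50 to 2.46 (adjusted p = 0.383). The highest prenatal value was 9.95 times the lowest, and the highest neonatal value 4.25 times the lowest. Its pooled SD within groups, 1.02 on the log2(FPKM + 1) scale, was larger than that of 96.7% of all mRNAs, whose median was 0.30. Prenatal1 decided much of the difference: without it the log2(FC) was 0.33 (adjusted p = 0.748), and without Neonatal1 it was 0.61 (adjusted p = 0.622). Without Neonatal2 it was 1.49 (adjusted p = 0.280).

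Of the mRNAs with a symbol, the 3 whose profile over the 6 samples lay nearest to that of IGF1 were ND2, CHST6 and ND1, with root mean squared differences of 0.40, 0.43 and 0.47 between centred log2(FPKM + 1) values. ND2 and ND1 are mitochondrially encoded subunits of respiratory complex I, and CHST6 is a sulfotransferase of keratan sulfate. ND2 stood at 10.9, 19.5 and 22.6 FPKM before birth and 70.5, 18.9 and 35.8 FPKM after it. Like IGF1, it had its lowest value in Prenatal1 and its highest in Neonatal1. All 4 genes were measured in the same libraries, and the likeness rests on 6 points.

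IGF2R (ENSSSCG00000004044), the clearance receptor for IGF2, had the lowest SD within groups of the 6 matched genes, 0.17 on the log2(FPKM + 1) scale. It had 11.00, 9.44 and 13.3 FPKM in the prenatal samples, against 10.58, 10.195 and 11.04 FPKM after birth. All 3 neonatal values lay inside the prenatal range. The means were 11.3 ± 1.97 and 10.6 ± 0.421 FPKM (n = 3 each, SD). The log2(FC) was -0.068 with a standard error of 0.18 (adjusted p = 0.846). The 95% interval ran from -0.49 to 0.36, so the data leave room for a change of that size in either direction. Of all mRNAs, 13.2% had a lower SD within groups. The log2(FC) turned to 0.051 without Prenatal3, and without Prenatal2 it was -0.18, after median-of-ratios scaling -0.23 and after quantile normalization -0.24.

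**Figure D2:**
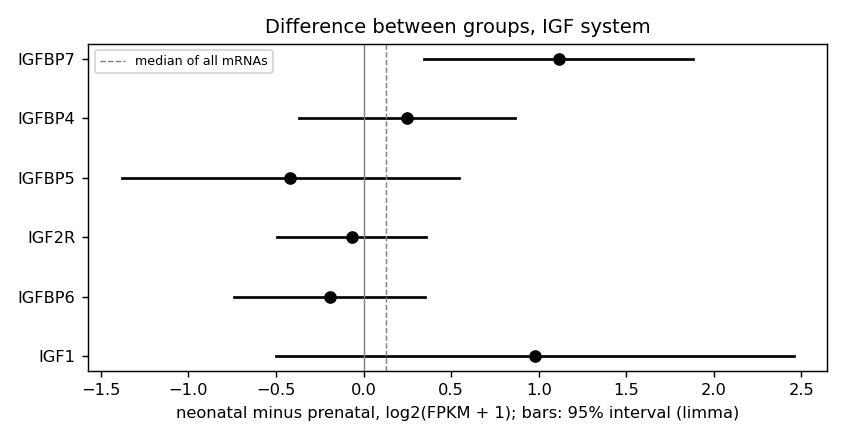
Difference between the groups for each gene, neonatal minus prenatal on the log2(FPKM + 1) scale, with 95% intervals from limma that are not adjusted for the number of mRNAs. The dashed line is the median of all mRNAs, 0.13. IGFBP7 at 1.11 and IGF1 at 0.98 have the largest differences, and the interval of IGF1 is the widest.

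IGFBP7 (ENSSSCG00000008913) binds IGFs with low affinity compared with the other binding proteins, and is secreted into the matrix around blood vessels. It was the most abundant of the matched genes in each of the 6 samples, at 138, 78.5 and 177 FPKM in Prenatal1, Prenatal2 and Prenatal3 against 240, 264 and 312 FPKM in Neonatal1, Neonatal2 and Neonatal3. Each neonatal sample lay above each prenatal sample. The mean was 131 ± 49.4 FPKM before birth and 272 ± 36.6 FPKM after it (n = 3 each, SD), 2.07 times as high. Its log2(FC), 1.11 with a standard error of 0.33, was larger than that of 93.7% of all mRNAs but did not pass over the whole table (adjusted p = 0.0930). The 95% interval, unadjusted, ran from 0.35 to 1.88. The prenatal mean lay above that of 97.5% of all mRNAs and the neonatal mean above that of 98.0%.

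The difference in IGFBP7 was smaller without Prenatal2, the sample with the lowest IGFBP7, at a log2(FC) of 0.79 (adjusted p = 0.222), and larger without Prenatal3, at 1.37 (adjusted p = 0.0973). Under median-of-ratios scaling the values were 139, 87.6 and 189 in the prenatal samples and 243, 247 and 274 in the neonatal samples. The groups still did not overlap, with a log2(FC) of 0.94 (adjusted p = 0.105). Under quantile normalization the log2(FC) was 0.68 (adjusted p = 0.148).

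Values of smooth muscle, pericyte and endothelial markers stand beside those of IGFBP7. Of the 8 smooth muscle and pericyte markers, all of which were matched, 7 had a log2(FC) above 0 and 1 below. Past the threshold, as higher in the neonatal group, were 3 (ACTA2, CNN1 and TAGLN), against 5.41% of all mRNAs. PDGFRB, CSPG4 and RGS5 had log2(FC) values of 0.23, 0.27 and -0.76 (adjusted p = 0.485, 0.483 and 0.112). The summed level of all 8 was between 369 and 598 FPKM in the prenatal samples and between 1074 and 1739 FPKM in the neonatal samples. Most of the larger sum came from ACTA2 and TAGLN. Their means were 116 and 252 FPKM before birth and 383 and 869 FPKM after it. DES had means of 81.0 and 83.1 FPKM (log2(FC) 0.12, adjusted p = 0.855), and MYH11 had a log2(FC) of 0.74 (adjusted p = 0.135). Of the 5 matched of 7 endothelial markers, 0 passed, against 6.87% of all mRNAs, and 2 had a log2(FC) above 0 and 3 below. The endothelial sum was between 439 and 558 FPKM before and between 618 and 846 FPKM after birth. CLDN5, a junction protein of endothelium, carried the larger sum, with 225, 198 and 265 FPKM in the prenatal and 377, 616 and 617 FPKM in the neonatal samples. PECAM1 had a log2(FC) of 0.047 (adjusted p = 0.902). KDR, TEK and EMCN were lower after birth, at -0.40, -0.48 and -0.74 (adjusted p = 0.195, 0.246 and 0.141). Markers that did not pass were named after their values had been seen. No marker of either list was listed at 0. The part of these cells in the IGFBP7 difference was not tested.

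IGFBP4 (ENSSSCG00000017472), which holds IGFs away from their receptor until the protease PAPPA cuts it, was second in level. It had 70.5, 48.2 and 80.1 FPKM in the prenatal samples, and the neonatal values were 60.2, 86.3 and 88.5 FPKM. Neonatal1 lay below Prenatal1 and Prenatal3, so that the groups overlapped. Means were 66.3 ± 16.3 and 78.3 ± 15.8 FPKM (n = 3 each, SD). Their log2(FC) was 0.25 with a standard error of 0.26 and a 95% interval from -0.37 to 0.86 (adjusted p = 0.599). Without Prenatal2 it was 0.038, without Neonatal1 0.42, without Prenatal3 0.40 and without Neonatal3 0.15. Median-of-ratios scaling gave 0.072, and under quantile normalization the sign turned, to -0.094.

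IGFBP5 (ENSSSCG00000025924), a binding protein that attaches to extracellular matrix, varied more. Prenatal1, Prenatal2 and Prenatal3 had 25.8, 10.5 and 22.9 FPKM, and Neonatal1, Neonatal2 and Neonatal3 had 12.0, 9.19 and 22.3 FPKM. In each group 1 sample lay far from the other 2: Prenatal2 was low, and Neonatal3 was high. The means were 19.7 ± 8.15 and 14.5 ± 6.91 FPKM (n = 3 each, SD). The log2(FC) was -0.42 with a standard error of 0.41 and a 95% interval from -1.38 to 0.54 (adjusted p = 0.568). Without Prenatal2 the log2(FC) was -0.80 (adjusted p = 0.346), without Neonatal3 -0.76 (adjusted p = 0.353), and without Neonatal2 -0.16 (adjusted p = 0.874).

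IGFBP6 (ENSSSCG00000000261), which prefers IGF2 over IGF1, was measured at 10.5, 8.19 and 10.4 FPKM in the prenatal samples, against 7.997, 6.33 and 11.2 FPKM after birth. Neonatal3 was the highest of the 6 samples and Neonatal2 the lowest. Means were 9.70 ± 1.31 and 8.52 ± 2.49 FPKM (n = 3 each, SD), and the log2(FC) was -0.19 with a standard error of 0.23 and a 95% interval from -0.74 to 0.35 (adjusted p = 0.648). Without Neonatal2 it was -0.021, without Neonatal3 -0.39, and without Prenatal2 -0.30. Median-of-ratios scaling gave -0.35 and quantile normalization -0.36.

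By level, the order of the genes was IGFBP7, IGFBP4, IGFBP5, IGF2R, IGFBP6 and IGF1 in both groups. In the neonatal group the ranges of IGFBP7 and IGFBP4 did not overlap, and the mean of IGFBP7 was 3.47 times that of IGFBP4. In the prenatal group it was 1.98 times as high, and the ranges overlapped, although IGFBP7 was above IGFBP4 in each of the 3 samples. IGFBP4 lay clear of IGFBP5 in both groups, at 3.36 and 5.40 times its mean. The ranges of IGFBP5 and IGF2R overlapped in both groups, as did those of IGF2R and IGFBP6. In the prenatal group each of these pairs kept its order in 3 of 3 samples, and in the neonatal group in 2 of 3. IGF1 lay clear below IGFBP6 in the prenatal group and overlapped with it in the neonatal group.

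Prenatal2 had the lowest prenatal value of 5 of the 6 genes, all but IGF1, and this was also so for 5 genes after median-of-ratios scaling. Its column also had the lowest FPKM sum of the 6. In the neonatal group, Neonatal3 had the highest value of 5 genes, all but IGF1, and its column had the highest sum. After median-of-ratios scaling it was highest for 3 genes (IGFBP5, IGFBP6 and IGFBP7), and Neonatal1 was highest for IGF1 and IGF2R and Neonatal2 for IGFBP4.

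The shares of the 4 matched binding proteins in their own sum do not change when each sample is divided by a single factor. Quantile normalization can change them, and the sum itself depends on scaling. This sum was 245, 145 and 290 FPKM in the prenatal samples, against 320.0, 366 and 434 FPKM after birth, without overlap. IGFBP7 made up 56.4%, 54.0% and 60.9% of it in the prenatal samples and 75.0%, 72.2% and 71.9% in the neonatal samples. IGFBP4 made up 28.8%, 33.2% and 27.6% before birth and 18.8%, 23.6% and 20.4% after it. The share of IGFBP5 was between 7.20% and 10.5% in the prenatal and between 2.51% and 5.14% in the neonatal samples, and that of IGFBP6 between 3.59% and 5.63% and between 1.73% and 2.59%. The groups did not overlap for any of the 4 shares. The ratio of IGFBP7 to IGFBP4 was 1.93 ± 0.290 in the prenatal and 3.52 ± 0.464 in the neonatal group (n = 3 each, SD). These shares add up to a whole and are led by IGFBP7, so they are a single pattern seen from 4 sides, and they were not tested. IGFBP2 and IGFBP3 are not in the sum.

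**Figure D3:**
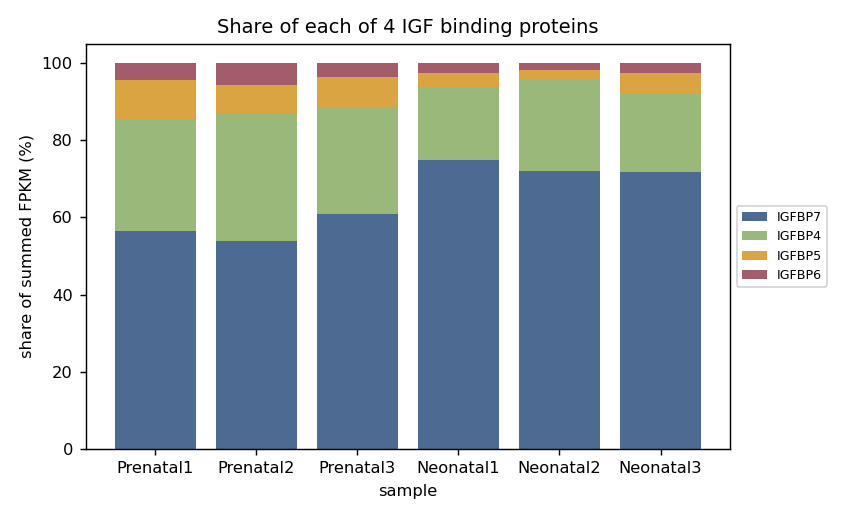
Share of each of the 4 matched binding proteins in their summed FPKM (%), 1 bar per sample. IGFBP7 takes between 54.0% and 60.9% in the prenatal samples and between 71.9% and 75.0% in the neonatal samples.

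Genes around the system were taken from 8 lists that name 95 genes, of which 64 were matched. Of these, 3 passed the threshold, or 4.69%, against 6.87% of all mRNAs: HTRA1 and MEST were higher and TXNIP was lower in the neonatal group. The median log2(FC) of the 64 genes was -0.13. Some rows had a symbol only because the study had called them different between the groups, so matching was not blind to the difference. How many of the 64 were matched that way is not given here, and this limit holds for each list below. The groups did not overlap for 9 of them as higher and 18 as lower, against 20.9% and 9.64% of all mRNAs. The calls depended on the samples: with each sample left out in turn, between 0 and 2 of the 64 genes passed. The count was 0 without Prenatal1, Prenatal2 or Neonatal2, and 1 without Prenatal3 (HTRA1) or Neonatal3 (MEST). Without Neonatal1 it was 2, EIF4EBP1 and FBXO32, neither of which passed with all 6 samples. HTRA1, MEST and TXNIP missed the threshold without Neonatal1. The calls also depended on scaling, with 8 under median-of-ratios scaling and 10 under quantile normalization.

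**Figure D4:**
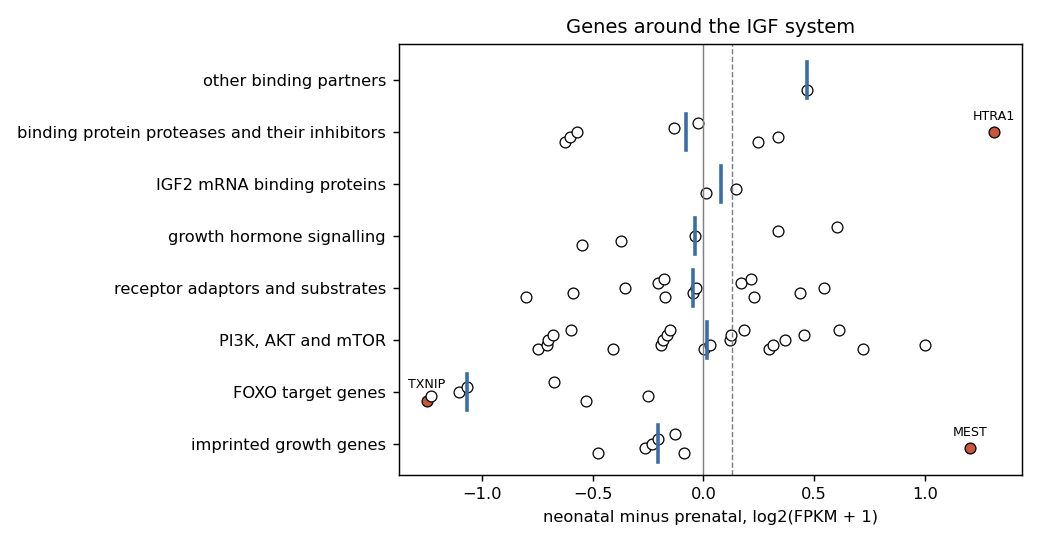
Difference between the groups, neonatal minus prenatal on the log2(FPKM + 1) scale, for each matched gene of 8 lists. Filled points passed the threshold, blue bars are list medians, and the dashed line is the median of all mRNAs. HTRA1 at 1.31, MEST at 1.20 and TXNIP at -1.25 are the calls.

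Among proteases that cut the binding proteins and the inhibitors of these proteases, 8 of 9 genes were matched, 3 with a log2(FC) above 0 and 5 below, with a median of -0.080. HTRA1, a secreted serine protease that cuts IGFBP5 and matrix proteins, had 22.6, 18.7 and 35.2 FPKM in the prenatal samples, and the neonatal values were 56.2, 57.8 and 75.8 FPKM. The groups did not overlap, and HTRA1 rose by 1.31 on the log2 scale, with a standard error of 0.27 (adjusted p = 0.0311). It kept an adjusted p under the threshold with Prenatal3 left out and reached between 0.0578 and 0.123 without any of the other 5 samples. PAPPA, the protease that cuts IGFBP4, had 1.53 ± 0.111 and 0.728 ± 0.394 FPKM (n = 3 each, SD), with log2(FC) -0.57 (adjusted p = 0.182). STC2, an inhibitor of PAPPA, had 1.00 ± 0.160 and 0.304 ± 0.143 FPKM (n = 3 each, SD), with log2(FC) -0.62 (adjusted p = 0.118). PAPPA2 and ADAM12 had log2(FC) values of 0.33 and -0.60 (adjusted p = 0.385 and 0.165). These 4 genes were named after their values had been seen. The groups did not overlap for 2 of the 8 genes as higher (HTRA1 and PAPPA2) and 3 as lower (PAPPA, STC2 and ADAM12). Over all mRNAs the shares were 20.9% higher and 9.64% lower. PAPPA, PAPPA2 and STC2 had neonatal means below 1 FPKM, where the added 1 shrinks the log2(FC).

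Of the other binding partners, only IGFALS was matched, of 4 genes. This subunit of the large IGF complex of blood had 13.2 ± 4.64 and 18.0 ± 1.20 FPKM (n = 3 each, SD), with log2(FC) 0.47 (adjusted p = 0.309). Without Prenatal2 it was 0.22, and without Prenatal3 0.70. Median-of-ratios scaling gave 0.30 and quantile normalization 0.26. Both matched mRNA binding proteins of the IGF2 transcript missed the threshold: IGF2BP1 with a log2(FC) of 0.15 (adjusted p = 0.775) and IGF2BP2 with 0.012 (adjusted p = 0.982). IGF2BP2 turned to -0.15 under both scalings. Of 5 matched genes of growth hormone signalling, which drives IGF1 in liver, 0 passed, against 6.87% of all mRNAs. GHR, the growth hormone receptor, had 4.75 ± 1.12 and 2.91 ± 0.638 FPKM (log2(FC) -0.55, adjusted p = 0.205), and its kinase JAK2 had 6.78 ± 0.377 and 5.10 ± 1.21 FPKM (log2(FC) -0.37, adjusted p = 0.305; SD, n = 3 each). For both genes every neonatal value lay below every prenatal value, which holds for 9.64% of all mRNAs. For JAK2 the margin was small, at 6.41 FPKM in Neonatal3 and 6.48 FPKM in Prenatal2. Without Neonatal1 the log2(FC) of JAK2 was -0.24.

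Among the receptor adaptors and substrates, 0 of 13 matched genes passed, against 6.87% of all mRNAs, with 5 above 0, 8 below and a median of -0.046. INSR, the insulin receptor and closest relative of IGF1R, had 18.2, 19.9 and 12.9 FPKM in the prenatal samples, against 9.55, 8.86 and 9.10 FPKM after birth. The groups did not overlap, which holds in this direction for 9.64% of all mRNAs. The log2(FC) was -0.80 with a standard error of 0.20 (adjusted p = 0.0602). A second row of the table carried the same symbol (ENSSSCG00000013564), with a log2(FC) of -0.58 (adjusted p = 0.130) and again no overlap. Its symbol came from the study's list of mRNAs called different, so the study's own test, Cuffdiff, had called this row. The adaptor GAB1 had 7.19 ± 0.788 and 4.44 ± 0.287 FPKM (n = 3 each, SD), with log2(FC) -0.59 (adjusted p = 0.0935). Under median-of-ratios scaling INSR and GAB1 passed, at adjusted p values of 0.0369 and 0.0461, and under quantile normalization they passed at 0.0375 and 0.0411.

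Of the PI3K, AKT and mTOR genes, 22 of 28 were matched and 0 passed, against 6.87% of all mRNAs. Of the 22, 12 were above 0 and 10 below, with a median of 0.016. PIK3CD, the catalytic PI3K subunit of leukocytes, had 1.91, 1.94 and 1.91 FPKM in the prenatal samples, and the neonatal values were 3.63, 4.02 and 3.796 FPKM. PIK3CD had a log2(FC) of 0.72 with a standard error of 0.17 (adjusted p = 0.0521), and it passed without a variance trend (adjusted p = 0.0485) and under the stricter filter (adjusted p = 0.0429). The matched neutrophil markers, 3 of 5, summed to between 38.0 and 59.0 FPKM in the prenatal samples and between 310 and 423 FPKM in the neonatal samples. S100A8 and S100A9 passed the threshold as higher, CSF3R did not (adjusted p = 0.0846), and none of the 3 was listed at 0. All 4 matched macrophage markers had a log2(FC) above 0, and 0 passed. Of the 3 matched lymphocyte markers, 1 was above 0, 2 were below and 0 passed. The part of any of these leukocytes in the PIK3CD values was not tested.

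The FOXO transcription factors, which AKT keeps out of the nucleus when IGF1R or INSR is active, did not pass either. FOXO3 had 31.6, 20.6 and 27.7 FPKM in the prenatal samples, against 15.1, 15.3 and 16.8 FPKM after birth. FOXO3 thus had a log2(FC) of -0.70, with a standard error of 0.20 (adjusted p = 0.0869). FOXO1 had 9.95, 6.67 and 8.95 FPKM before and 4.45, 3.85 and 5.71 FPKM after birth (log2(FC) -0.75, adjusted p = 0.0924). FOXO4 had means of 18.4 ± 4.54 and 11.0 ± 2.88 FPKM (n = 3 each, SD), and its log2(FC) was -0.70 (adjusted p = 0.151). For each of the 3 the groups did not overlap, which holds in this direction for 9.64% of all mRNAs. FOXO1 and FOXO4 were named after their values had been seen. Under median-of-ratios scaling and under quantile normalization 2 of the 3 passed, FOXO1 and FOXO3.

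Genes known as targets of FOXO factors were taken as another list, of which 7 of 13 were matched. All 7 had a log2(FC) below 0, with a median of -1.07 beside 0.13 for all mRNAs, and for 6 of them the groups did not overlap, which holds in this direction for 9.64% of all mRNAs. Without Prenatal1 the median was -0.68. The 1 gene that passed was TXNIP, an inhibitor of thioredoxin and of glucose uptake. It had 301, 206 and 237 FPKM in the prenatal samples, and the neonatal values were 88.5, 101 and 122 FPKM. TXNIP fell by 1.25 on the log2 scale (standard error 0.24, adjusted p = 0.0277), and without any 1 of the 6 samples its adjusted p lay between 0.0536 and 0.109. The other 6 genes were named after their values had been seen. FBXO32, a ubiquitin ligase of muscle atrophy, had 5.08 ± 0.171 and 2.01 ± 1.07 FPKM (n = 3 each, SD), with log2(FC) -1.07 (adjusted p = 0.0576). SESN1, a sestrin that restrains mTOR complex 1, had 25.6 ± 9.35 and 11.1 ± 2.67 FPKM (n = 3 each, SD), with log2(FC) -1.10 (adjusted p = 0.0700). PDK4, a kinase that shuts off pyruvate dehydrogenase, had 43.7, 15.8 and 11.4 FPKM in the prenatal and 8.10, 8.79 and 7.13 FPKM in the neonatal samples (log2(FC) -1.23, adjusted p = 0.145), so that Prenatal1 stood far above the rest. CCNG2 and BCL6 had log2(FC) values of -0.53 and -0.67 (adjusted p = 0.123 and 0.181), and CITED2, whose groups overlapped, -0.25 (adjusted p = 0.673). Under median-of-ratios scaling and under the stricter filter 2 of the 7 genes passed, under quantile normalization 4, and with the replicate block 0. The sign stayed below 0 for all 7 under both scalings, and for 6 of 7 without Neonatal1. Many of these genes also answer to other factors, glucocorticoids among them.

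**Figure D5:**
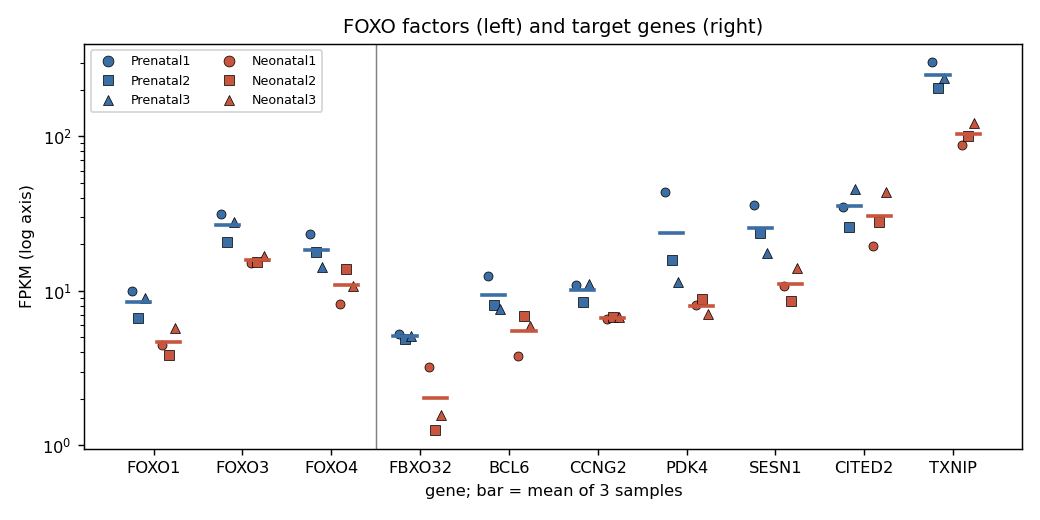
FPKM (log axis) of FOXO1, FOXO3 and FOXO4 and of the 7 matched FOXO target genes in each sample, with bars at the mean of 3 samples. The neonatal samples lie below the prenatal samples for every gene shown but CITED2, and TXNIP is the 1 gene past the threshold.

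Imprinted genes of growth, the class to which IGF2 and, in some species, IGF2R belong, were matched for 7 of 15. MEST, a member of this class from mesodermal tissue, had 2.55, 3.30 and 2.83 FPKM in the prenatal samples, against 9.46, 9.48 and 5.52 FPKM after birth. The groups did not overlap, which holds in this direction for 20.9% of all mRNAs. MEST rose by 1.20 on the log2 scale, with a standard error of 0.24 (adjusted p = 0.0302). It stayed past the threshold without Neonatal3 and had an adjusted p between 0.0716 and 0.113 without any of the other 5 samples, 0.0618 under median-of-ratios scaling and 0.0519 under quantile normalization. The other 6 genes had log2(FC) values between -0.48 and -0.088 and did not pass. These signs were not stable. Of the 7 genes, MEST included, 3 were above 0 without Prenatal3 and 4 without Neonatal3.

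Of the 14 cell type lists, 3 held genes past the threshold, all of them higher in the neonatal group: smooth muscle and pericyte, neutrophil and proliferating cell. The 5 matched of 7 markers of proliferating cells all passed, and their sum was between 10.8 and 14.8 FPKM before and between 85.9 and 108 FPKM after birth, with none listed at 0. On the other 11 lists 0 of 40 matched markers passed. Over all mRNAs 6.87% passed, 5.41% as higher in the neonatal group, so the 0 of 40 is not read as a result about these cells. The 4 matched of 7 fibroblast markers, which mark cells known to make IGF1, IGFBP4 and IGFBP5, summed to between 870 and 1103 FPKM in the prenatal and between 1158 and 1484 FPKM in the neonatal samples, with 0 past the threshold, 3 above 0, 1 below and none listed at 0. The part of any of these cells in the values of HTRA1, MEST, TXNIP and the IGF genes was not tested.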

How the data were processed

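Lung RNA of 3 prenatal and 3 neonatal piglets was depleted of ribosomal RNA (Ribo-Zero) and sequenced as strand-specific libraries, with 1 per animal. Per the study's methods and the submitters' processing notes, reads were mapped to Sscrofa10.2 with TopHat2 2.1.0, and the authors computed the deposited FPKM values with Cufflinks 2.2.1 and kept mRNAs above 0.5 FPKM in at least 1 sample, which all 14579 rows met. Depth as read counts is not in the table, so no counting error was given. Cuffdiff, which the study used for its calls, needs alignments and was not run. Columns were matched to samples by name, with 0 left over. Symbols came from a reference list (9478 rows). Where missing, they came from the study's supplementary list of mRNAs it called different between the groups, held in part (403 rows). Rows named in the second way carry a symbol only because the study had called them, so matching was not blind to the difference. Genes without a match were not analysed here, nor were the lncRNA table, gene positions and sequences.

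Values were analysed as log2(FPKM + 1). The groups were compared in limma (version 3.58.1 under R 4.3.3), letting the prior variance follow the mean level, and p-values were adjusted over all mRNAs by the Benjamini-Hochberg method. The fit was tested on simulated data. For a symbol on more than 1 row, the row named by the reference list was used. Named were all matched members and the 3 mRNAs nearest in profile to IGF1. Also named were each listed gene past the threshold and, in lists with none, the 2 genes with the lowest adjusted p. Others are marked in the text, except surfactant protein C, ALB, APOA1, CSF3R and EIF4EBP1, which were named outside these rules. The lists, rules and members were chosen with earlier results of these data known. Alternatives were other pseudocounts (0.5 and 0.1), a stricter filter (3 or more samples above 1 FPKM), quantile normalization, scaling by median of ratios, a constant prior variance, a replicate block, and leaving out each sample. Python 3.11.15 with pandas 2.3.3 and matplotlib 3.10.9 was used for summaries and plots.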

Additional observations from a re-analysis of the deposited data

How the results depend on the processing

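The count of IGF system genes past the threshold was 0 of 6 under all 13 alternatives that were run, the 6 that leave out 1 sample included. The number of all mRNAs past it was 1001, and between 954 and 1155 under the other pseudocounts, filter, scalings and variance model, but 401 with the replicate block and between 196 and 944 with 1 sample left out. Of the 64 pathway genes 3 passed, 5 with the stricter filter, 8 under median-of-ratios scaling, 10 under quantile normalization, 0 with the replicate block, and between 0 and 2 with 1 sample left out. The cause of these moves was not tested, other than that fewer samples enter the fits that leave 1 out.

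The replicate numbers did not pair the animals, which came from different sows: same-numbered samples had correlations of deviations of -0.0407, -0.00434 and 0.000466, and with the replicate block HTRA1, MEST and TXNIP had adjusted p values of 0.05004, 0.0691 and 0.0959. The sign turned for IGFBP4 under quantile normalization (-0.094), for IGF2R without Prenatal3 (0.051), for IGF2BP1 without Neonatal1 (-0.089), and for IGF2BP2 under median-of-ratios scaling (-0.15), quantile normalization (-0.15), without Prenatal3 (-0.15) and without Neonatal1 (-0.21). With 1 sample left out, the log2(FC) lay between -0.18 and 0.051 for IGF2R, between -0.089 and 0.30 for IGF2BP1 and between -0.21 and 0.15 for IGF2BP2. The mean of IGF2R in the neonatal group was 9.98 FPKM after median-of-ratios scaling, more than 1 SD from the unscaled mean, and all other group means of the 6 genes moved by less than their SD. With 3 animals a group, an exact permutation test of a single value cannot give a two-sided p below 0.1, and so none was used.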
